A study of Mus musculus with 6 samples.

Results

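Insulin-like growth factors (IGFs), their receptor and their binding proteins were followed in mouse muscle through 29 probe sets of 10 genes: Igf1, Igf2, Igf1r, Igfbp2 to Igfbp7 and Ghr. The genes were taken by symbol from 18193 named genes on the array, and every probe set of each was kept, of 45037 tested. Each probe set combines several short probes into an intensity on a linear scale. No probe sequences were given, so which transcripts a probe set detects was not checked. Each of 6 mice was measured on 1 Affymetrix mouse GeneChip, and the 2 groups were wild type (WT, n = 3) and SIRT6KO (KO, n = 3), all on the 129SvJ background. SIRT6 is a NAD-dependent deacylase of chromatin. The labels give neither the age of the mice, nor which muscle was taken, nor how the knockout was made. The comparison asks how KO muscle differs from WT muscle.

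IGF-1 and IGF-2 are small secreted proteins related to insulin. They bind the receptor tyrosine kinase encoded by Igf1r, which signals through insulin receptor substrates, PI3-kinase and AKT to raise protein synthesis and to hold FoxO factors out of the nucleus. Growth hormone acts through its receptor, Ghr, and STAT5 to induce Igf1, while IGF binding proteins carry IGFs, lengthen their life or keep them from the receptor. In muscle this pathway is known for growth and regeneration, and SIRT6 has been linked to it in the heart, where it acts with the AP-1 factor c-Jun at promoters of IGF signalling genes.

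The promoters of Igf1, Igf1r and Igfbp5 are shown because the profiles of these genes across arrays are described most closely below. Each run is the 250 bases before the RefSeq start site on GRCm38.p6, written 5′ to 3′ on the strand of the gene, with every CpG in capitals.
Igf1, chr10:87860861-87861110, plus strand: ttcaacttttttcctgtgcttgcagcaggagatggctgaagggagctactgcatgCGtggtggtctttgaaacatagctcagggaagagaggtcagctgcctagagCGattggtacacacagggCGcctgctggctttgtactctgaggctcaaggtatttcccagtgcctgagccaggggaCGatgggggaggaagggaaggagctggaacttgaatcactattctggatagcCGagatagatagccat
Igf1r, chr7:67952007-67952256, plus strand: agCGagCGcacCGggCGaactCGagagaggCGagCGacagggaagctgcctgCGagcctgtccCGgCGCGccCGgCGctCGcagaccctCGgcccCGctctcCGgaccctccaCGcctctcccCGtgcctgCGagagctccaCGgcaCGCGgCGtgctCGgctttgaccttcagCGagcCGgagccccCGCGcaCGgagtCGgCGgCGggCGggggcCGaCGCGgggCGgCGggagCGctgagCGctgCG
Igfbp5, chr1:72874866-72875115, minus strand: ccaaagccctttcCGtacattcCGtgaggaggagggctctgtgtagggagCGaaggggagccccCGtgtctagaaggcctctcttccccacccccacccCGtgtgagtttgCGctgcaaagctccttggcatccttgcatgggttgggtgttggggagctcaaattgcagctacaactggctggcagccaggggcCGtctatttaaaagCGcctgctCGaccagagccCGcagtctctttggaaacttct
The Igf1r stretch holds 42 CpGs and 77.6% G or C, the Igfbp5 stretch 10 and 58.8%, and the Igf1 stretch 5 and 52.8%. Over all 32851 RefSeq promoters of this length the medians were 6 CpGs and 52.4%. All 10 genes matched the promoter table, with 15 start sites. Searched on both strands, the AP-1 motif TGACTCA was found in 1 of these 15 stretches, at a start site of Igfbp2, against 4.46% of all promoters. These letters were chosen after the matches of a looser form had been seen: TGANTCA, which contains TGACTCA, was searched first and was found in 3 of the 15, at start sites of Igf1, Igfbp2 and Ghr, against 6.75% of all promoters. The FoxO motif GTAAACA and the STAT5 motif TTCNNNGAA were found in 0 of the 15, against 3.17% and 7.02% of all promoters, which says only that these letters are not in these windows.

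Several properties of the arrays bear on every value below. The median intensities were 15, 12.3 and 10.8 in WT replicates 1, 2 and 3 and 11, 13.5 and 12.2 in KO replicates 1, 2 and 3. Hybridization controls of WT replicate 1 were 1.9 times those of WT replicate 2, whereas the other arrays lay between 0.959 and 1.01 times. Xist, expressed from the inactive X chromosome, read 24.5 to 31.3 in WT and 715.4 to 1165.7 in KO, and Y-linked Eif2s3y 44.5 to 77.1 and 1.1 to 4.1, so genotype label and sex cannot be told apart. The Sirt6 probe set read 19.9 ± 4.24 and 18.2 ± 4.45 (SD, n = 3 each), and as its place relative to the deletion is unknown here, it cannot serve as a check of the genotype. All 10 myofibre markers, such as Ckm and Acta1, were bright, with summed intensities of 83386 to 137142 in WT and 85219 to 88501 in KO. The ratios of 3′ to 5′ probe sets did not separate the groups (Gapdh 0.831 ± 0.00454 and 0.833 ± 0.0192, n = 3 each, two-sided exact permutation p = 0.9, where 0.1 is the smallest possible).

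None of the 29 probe sets passed limma's test at an adjusted p of 0.05 (0 of 29, lowest adjusted p = 0.529), where 0.00888% of all probe sets did. At an unadjusted p under 0.05 there were 11 of the 29, 6 higher and 5 lower in KO, against 8.56% of all probe sets (3.57% higher and 4.99% lower). Leaving out WT replicate 1, 2 or 3 brought this count of 11 to 2, 8 and 7. It stayed at 11 when KO replicate 1 was left out, and was 6 without KO replicate 2 and 5 without KO replicate 3. The share over all probe sets was not counted with an array left out, so these counts have no background beside them. The WT and KO arrays did not overlap for 7 of the 29, against 12.3% of all. In 2 of these, of Igf2 and Igf1r, every KO array lay above every WT array (5.02% of all). With arrays centred on their medians this held for 4, of Igf2, Igf1r and Igfbp3 (7.17%). In the other 5 of the 7, of Igfbp5, Ghr and Igfbp7, every KO array lay below (7.29% of all). Fold changes below are on the log2(intensity + 16) scale, which understates changes of dim probe sets, and are given with 95% intervals.

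**Figure D1:**
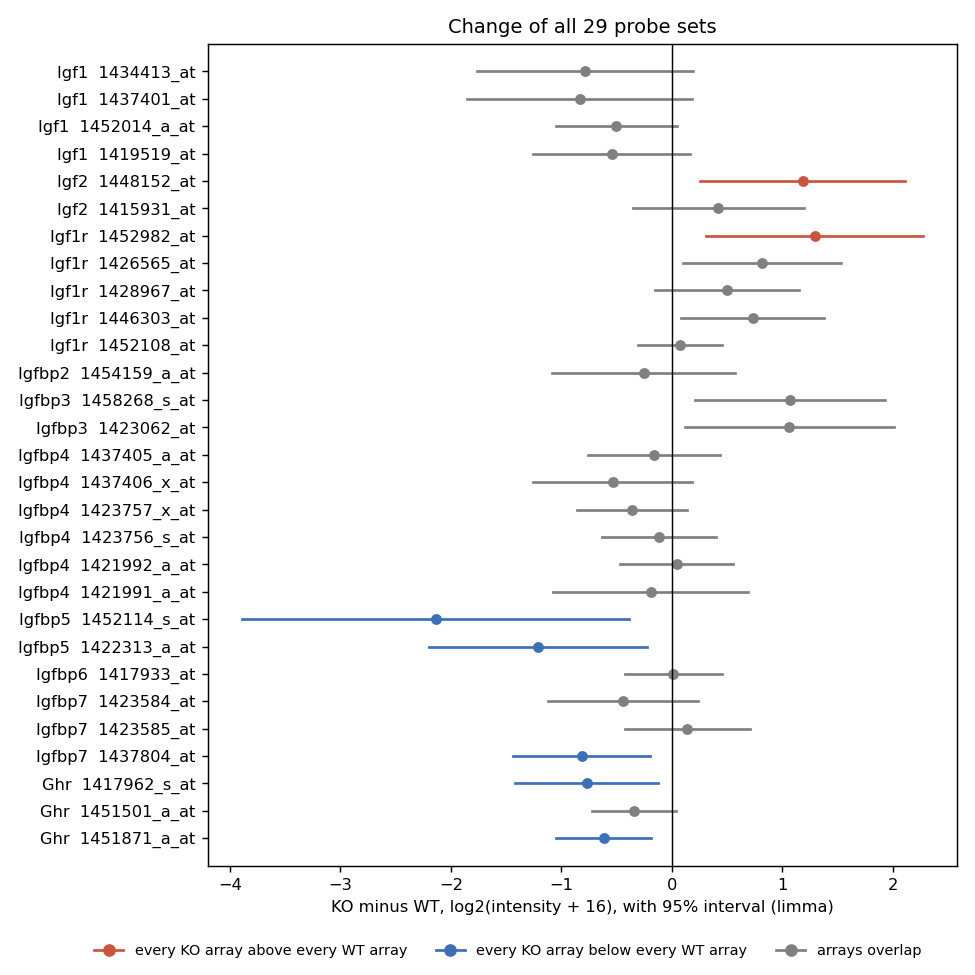
Difference between KO and WT on the log2(intensity + 16) scale for each of the 29 probe sets, with limma's 95% interval; colour shows whether the 3 KO and 3 WT arrays overlap. The points run from -2.14 for Igfbp5 to 1.30 for Igf1r, and 7 probe sets are coloured as not overlapping.

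Among the ligands, Igf1 had lower and Igf2 higher mean intensities in KO. Igf1, the main growth hormone-induced IGF, read 299.7, 159.3 and 206.7 in the WT arrays and 130.2, 203.4 and 58.9 in the KO arrays at its brightest probe set, 1434413_at. KO replicate 2 lay inside the WT range, and KO replicate 3 was lowest. The fold of KO over WT was 0.58 (interval 0.295 to 1.14, adjusted p = 0.647). With arrays scaled to the hybridization controls the log2 change was -0.51 instead of -0.79. All 4 Igf1 probe sets had a lower mean in KO, by 0.50 to 0.83 on the log2 scale, and in each of them KO replicate 3 was the lowest of the 6 arrays. KO replicate 2 was the KO array nearest to the WT mean in all 4, so the probe sets put the arrays in a like order. None of the 4 parted the groups.

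Igf2, an imprinted gene expressed from the paternal allele and active in fetal growth and in myoblasts, read 528.8, 899.4 and 673.1 in WT and 1509.1, 2739.8 and 943.9 in KO at 1448152_at. Every KO array lay above every WT array, although KO replicate 3 exceeded WT replicate 2 by little. The fold was 2.27 (interval 1.19 to 4.34, adjusted p = 0.552). The other Igf2 probe set, 1415931_at, was near the offset of 16, with a WT level of 12.9 ± 4.59 and a KO level of 25.3 ± 20.0 (SD, 3 arrays each). There KO replicate 2 stood alone at 48.2, and the other KO arrays lay within the WT range. KO replicate 2 was thus the highest array at both probe sets, and without it the log2 change of 1448152_at was 0.79 instead of 1.18.

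Igf1r, the receptor for both ligands, read 149.1, 112.8 and 108.2 in WT and 157, 391.7 and 538.6 in KO at 1452982_at. KO replicate 1 lay just above the highest WT array, and KO replicates 2 and 3 stood well above all others. The fold was 2.46 (interval 1.24 to 4.85, adjusted p = 0.54). At 1426565_at the arrays read 36.7, 41.2 and 24.7 in WT and 41, 76.6 and 110.7 in KO. At 1428967_at they read 16.3, 21.8 and 16.6 in WT and 15.1, 43.9 and 44.7 in KO. KO replicate 1 lay inside the WT range at the first and just below it at the second, while KO replicates 2 and 3 lay above all WT arrays at both. With arrays centred on their medians KO replicate 1 lay above every WT array at 1426565_at. At 1446303_at, with 6.6 to 13.3 in WT and 12.8, 35 and 41 in KO, KO replicate 1 read inside the WT range. The smallest difference was at 1452108_at, which read 16.9 ± 3.91 and 18.7 ± 4.78 (SD, n = 3 each). Means were higher in KO at all 5 probe sets, with log2 differences of 0.07 to 1.30, and the mean over all of them differed by 0.68. Without KO replicate 1 the log2 change at 1452982_at was 1.78, and without KO replicate 3 it was 0.94.

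Ghr, the growth hormone receptor, read 472.6, 331.9 and 228.3 in WT and 220.5, 197.7 and 150 in KO at 1417962_s_at. All KO arrays lay below all WT arrays, by a narrow margin between WT replicate 3 and KO replicate 1. The fold was 0.587 (interval 0.374 to 0.92, adjusted p = 0.563). With arrays scaled to the hybridization controls its log2 change was -0.48 instead of -0.77. At 1451871_a_at the values were 131.1, 105.3 and 93.2 in WT and 82.2, 62 and 54.7 in KO, again without overlap. With the hybridization-control scaling WT replicate 1 fell below KO replicate 1 there, so that the groups overlapped. This probe set had the lowest adjusted p of the 29, at 0.529, with a fold of 0.653 (interval 0.485 to 0.879). The third, 1451501_a_at, read 144.9, 149.1 and 106.8 against 99.8, 111.6 and 92.3, where KO replicate 2 exceeded WT replicate 3. With arrays centred on their medians KO replicate 2 instead lay below WT replicate 3 there, and the groups did not overlap. KO replicate 3 was the lowest array at all 3 Ghr probe sets, as it was for Igf1.

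**Figure D2:**
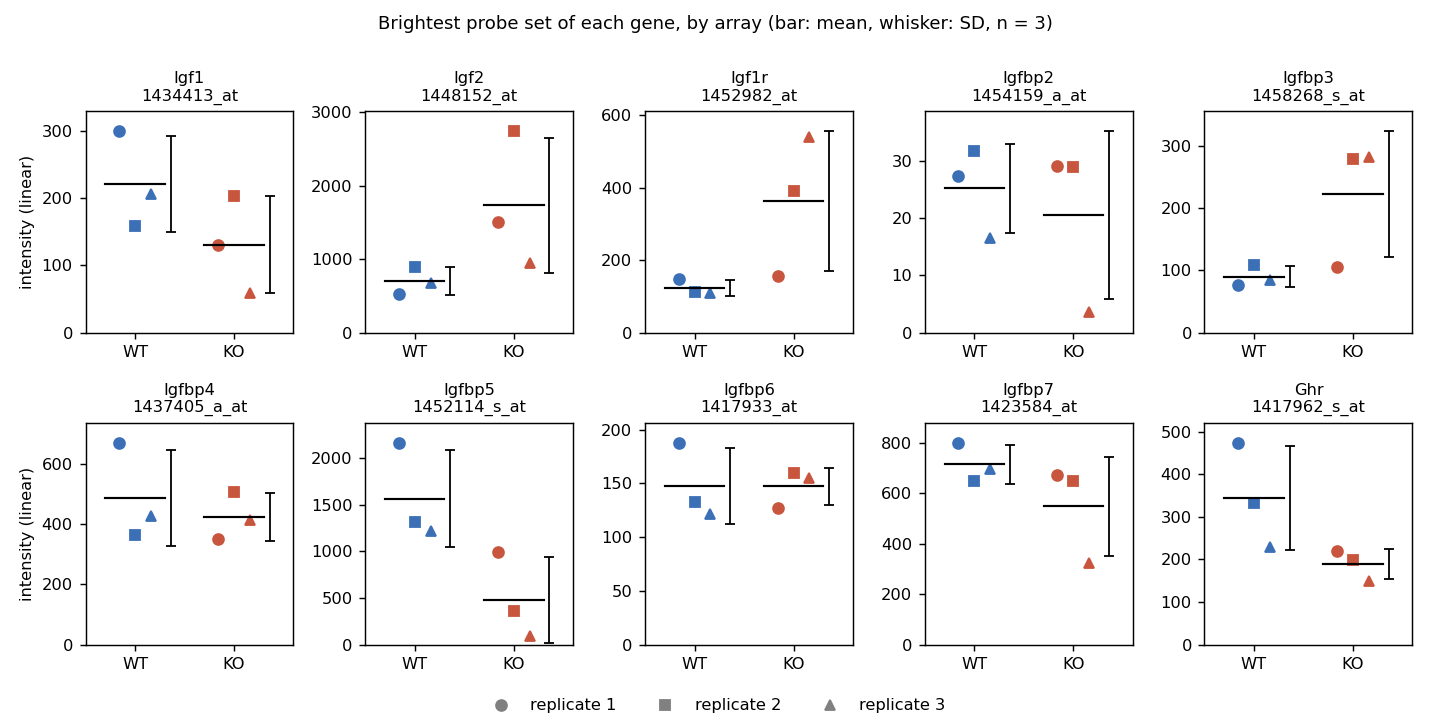
Linear intensity of the brightest probe set of each of the 10 genes in the 3 WT (blue) and 3 KO (red) arrays, with marker shape for the replicate number, a bar at the mean and a whisker of 1 SD. Igfbp5 runs from 2156.8 in WT replicate 1 to 96.3 in KO replicate 3, while the groups of Igfbp6 lie on each other at means of 147 and 147.

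The binding proteins went in different directions. Igfbp5, which binds extracellular matrix and is made by differentiating muscle cells, had the widest spread of all members on the log2 scale. It read 2156.8, 1316 and 1216.5 in WT and 987.8, 355.1 and 96.3 in KO at 1452114_s_at. No KO array reached the WT range, yet the KO arrays themselves differed 10.3-fold, against 1.77-fold among the WT arrays. The fold of KO over WT was 0.227 (interval 0.0674 to 0.766, adjusted p = 0.562), which is 4.4-fold lower. Without KO replicate 3 it was 2.5-fold lower, and without KO replicate 1 it was 7.48-fold lower. The second probe set, 1422313_a_at, read 278.3, 151.8 and 148.1 in WT and 140.7, 57.7 and 40.6 in KO, with KO replicate 1 close beneath WT replicate 3. Its fold was 0.432 (interval 0.219 to 0.854), so both Igfbp5 probe sets placed the 3 KO arrays in the same order.

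Igfbp3, the chief IGF carrier of blood and a product of many stromal and vascular cells, had higher means in KO. At 1458268_s_at it read 76.6, 108.8 and 84.1 in WT and 105.7, 280 and 281.9 in KO. KO replicate 1 lay between the WT arrays, while KO replicates 2 and 3 were nearly equal and far above them. The fold was 2.1 (interval 1.16 to 3.81, adjusted p = 0.56). At 1423062_at the same picture was seen, with 72.2, 89.9 and 49.7 in WT and 78.8, 224.2 and 231.5 in KO. On the deposited scale the groups therefore overlapped at both Igfbp3 probe sets through 1 KO array. With arrays centred on their medians that array lay above every WT array at 1458268_s_at, but not at 1423062_at.

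Igfbp4, which restrains IGFs until the protease PAPP-A cleaves it, differed little. Its brightest probe set, 1437405_a_at, read 670.6, 365.2 and 427.7 in WT and 350.4, 509.1 and 413.4 in KO. The fold was 0.893 (interval 0.59 to 1.35, adjusted p = 0.906). Of the 6 Igfbp4 probe sets 5 had lower and 1 had higher means in KO, between -0.53 and 0.04 on the log2 scale, and the groups overlapped at all 6. WT replicate 1 was the highest array at 4 of them. With arrays scaled to the hybridization controls, or without WT replicate 1, the brightest probe set had a higher mean in KO (log2 changes of 0.13 and 0.08).

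Igfbp6, which prefers IGF-2, was level between the groups. It read 187.4, 132.8 and 121.6 in WT and 127, 159.6 and 154.8 in KO, and the fold was 1.01 (interval 0.744 to 1.37, adjusted p = 0.994). The interval leaves room for differences of up to about that size in either direction. Igfbp2, an integrin-binding member, was dim, at 27.3, 31.8 and 16.6 in WT and 29.1, 28.9 and 3.6 in KO. KO replicate 3 stood apart there. Without that array the log2 change of Igfbp2 was 0.14 instead of -0.26.

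Igfbp7, a vascular and stromal protein with low affinity for IGFs, read 797.5, 647.9 and 695.3 in WT and 671.5, 648 and 322.1 in KO at 1423584_at. Only KO replicate 3 lay outside the WT range. The fold was 0.738 (interval 0.461 to 1.18, adjusted p = 0.716). At 1437804_at the values were 34, 37.2 and 11.5 in WT and 6, 8 and 9.5 in KO, so all KO arrays were below all WT arrays and below the offset of 16. The third probe set, 1423585_at, read 25.9, 22 and 8.3 against 28.9, 19 and 17.1. The Igfbp7 probe sets thus differed in direction, with log2 changes from -0.81 to 0.14.

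The 3 KO arrays did not behave alike. In absolute log2 distance from the WT mean, the 29 probe sets had medians of 0.35, 0.36 and 0.82 in KO replicates 1, 2 and 3, against 0.18, 0.20 and 0.23 over all probe sets. These medians are not of like sets. Of all probe sets 51.7% to 60.3% read below 16 on each array, where this scale understates changes, whereas all 29 members lay above the median level. KO replicate 3 was the lowest of the 6 arrays at 11 of the 29 and the highest at 7. KO replicate 1 was the KO array nearest to the WT mean at 14 of the 29, and the same held for 41% of all probe sets. At their brightest probe sets, Igf1r, Igfbp3 and Igfbp5 lay nearer to the WT mean in KO replicate 1 than in KO replicates 2 and 3, although Igfbp5 was below every WT array there too. Igf2 lay farthest in KO replicate 2 and Igf1 in KO replicate 3.

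**Figure D3:**
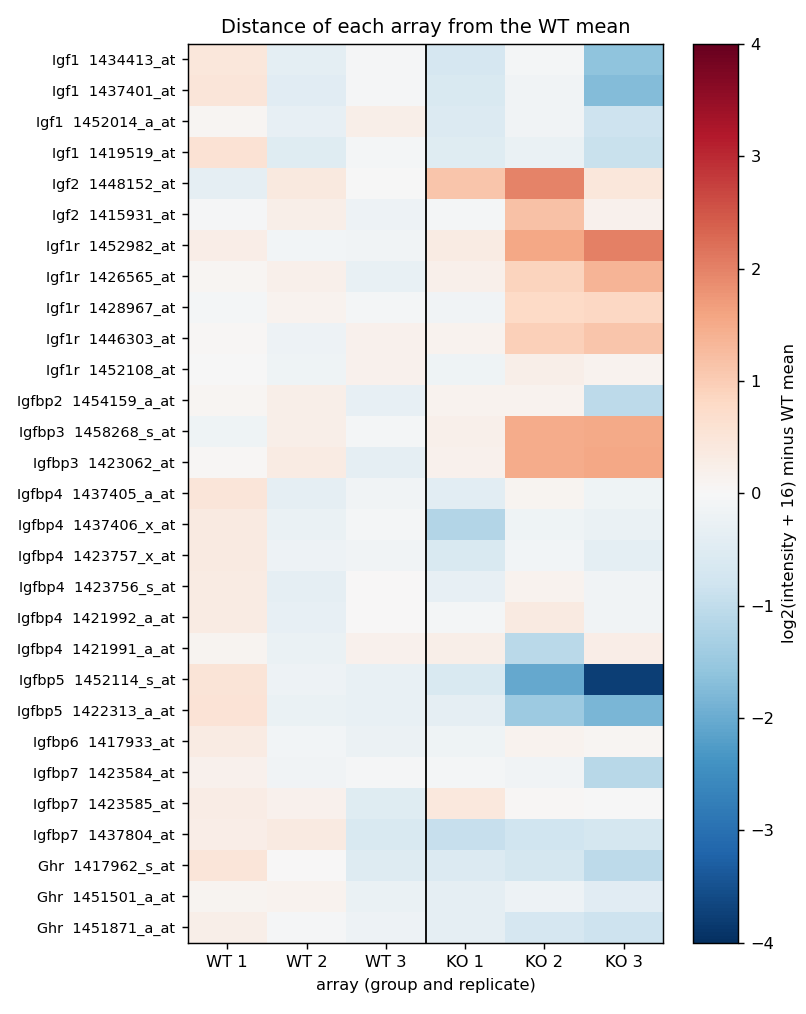
Colour gives log2(intensity + 16) of each array minus the mean of the 3 WT arrays, for the 29 probe sets (rows) and 6 arrays (columns). Igfbp5 at 1452114_s_at reaches -0.61, -2.04 and -3.77 in KO replicates 1, 2 and 3, and Igf1r at 1452982_at reaches 0.32, 1.56 and 2.00.

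A test restricted to the 22518 probe sets above the median level kept all 29 members, of which 27 had both group means above that level of 4.79 (log2). Igf1r at 1446303_at (group means of 4.72 in WT and 5.45 in KO) was kept only through KO, and Igfbp7 at 1437804_at (5.39 and 4.57) only through WT, so each of them had to differ to be kept. The test called 0 of the members (lowest adjusted p = 0.0945, Igfbp5 at 1452114_s_at), where it called 0.351% of its probe sets. When each array was left out of this test in turn, an alternative chosen after seeing the data, the members called were 0 in 4 cases. In these 0.0355% of probe sets were called without WT replicate 1 or WT replicate 3, 0.298% without WT replicate 2 and 0.0577% without KO replicate 2. Without KO replicate 1 there were 8, where 6% of its probe sets were called: both probe sets of Igfbp3 and of Igfbp5, 3 of Igf1r and 1 of Igf2. Among the 3 of Igf1r was 1446303_at (adjusted p = 0.0193), which was kept only through KO. Igf1r at 1452982_at then had an adjusted p of 0.000248 and Igfbp5 at 1452114_s_at of 3.3e-05. Without KO replicate 3 there were 2, Igf2 at 1448152_at (adjusted p = 4.78e-05) and Igfbp5 at 1452114_s_at (adjusted p = 0.00151), where 1.39% were called. The fit over all 45037 probe sets called 0 members whichever array was left out, and its lowest adjusted p was 0.129, without KO replicate 1.

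Genes around the IGF members were taken from lists with 1 probe set per gene, the brightest. Over all 18193 genes 46.8% had a higher mean in KO, 12.9% had groups without overlap (4.51% with KO above and 8.34% with KO below) and 0.0055% passed limma's test over all probe sets, and the median log2 change was -0.02. At an unadjusted p under 0.05 in that test there were 1789 of the 18193 genes. Of 8 genes of growth hormone signalling, 3 were higher and 5 lower in KO on average, 1 of each without overlap, and 0 passed in either direction (1 at an unadjusted p under 0.05). The median log2 change was -0.10. Stat5b, the transcription factor between Ghr and Igf1, read 275.7, 290.4 and 215.3 in WT and 311, 391.1 and 297.7 in KO, with no overlap (adjusted p = 0.635). Stat5a, which encodes the closely related STAT5A and was named after its values were seen, had a lower mean in KO, with 61.3, 44.1 and 42.8 in WT and 34.6, 35.6 and 30.2 in KO. Its groups did not overlap either, and its log2 change was -0.39 (adjusted p = 0.565). Cish, a STAT5-induced feedback inhibitor, read 144 ± 59.6 and 125 ± 45.3 (SD, n = 3 each), and the phosphatase gene Ptpn1 74.1 ± 18.1 and 89 ± 21.

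Of 13 genes for IGF carriers, clearance and proteases 12 were measured, and Igf2bp2 was not analysed here. On average 3 were higher and 9 lower in KO, 0 passed in either direction (2 at an unadjusted p under 0.05), and the median log2 change was -0.11. Igfals, Igfbp1, Pappa, Pappa2, Igfbpl1 and Igf2bp1 averaged below the offset of 16. Igf2bp3, whose protein binds Igf2 mRNA, read 176.6, 130.7 and 112.2 in WT and 79.5, 34.1 and 52.2 in KO, without overlap (fold 0.448, interval 0.288 to 0.697, adjusted p = 0.511). That is its brightest probe set of 6, of which 4 averaged below 16, and with all 6 averaged the log2 change was -0.29 instead of -1.16. Htra1, a secreted protease that can cleave IGF binding proteins, read 130.5, 79.7 and 107.6 against 85.2, 45.9 and 34.8. Igf2r, the receptor that clears IGF-2, read 154 ± 41.3 and 181 ± 33.5 (SD, n = 3 each).

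Of 27 genes for the insulin receptor and downstream signalling 24 were measured, and the others were not analysed here. There were 14 higher and 10 lower in KO on average, 5 and 1 of these without overlap, 0 passed in either direction (7 at an unadjusted p under 0.05), and the median log2 change was 0.16. Irs1, a docking protein of both receptors, read 560.6, 470.7 and 420 in WT and 355.9, 225.7 and 188.4 in KO (adjusted p = 0.524). Eif4ebp1, a repressor of translation that mTOR inactivates, read 276.8, 192.8 and 155.1 against 318.4, 710.8 and 1575.4, a fold of 3.33 (interval 1.37 to 8.11, adjusted p = 0.537). Foxo3, a FoxO factor that AKT keeps out of the nucleus, read 86.1, 37.8 and 31.4 against 72.1, 182.4 and 501.1. Its log2 change of 1.71 was 1.05 without KO replicate 3 and 2.33 without KO replicate 1. Grb10, an adaptor that dampens receptor signalling, read 351 ± 78.7 and 322 ± 139 (SD, n = 3 each). For Irs1, Eif4ebp1 and Foxo3, KO replicate 1 was the KO array nearest to WT and KO replicate 3 the farthest, which is the order seen for Igfbp5 and Igf1r.

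**Figure D4:**
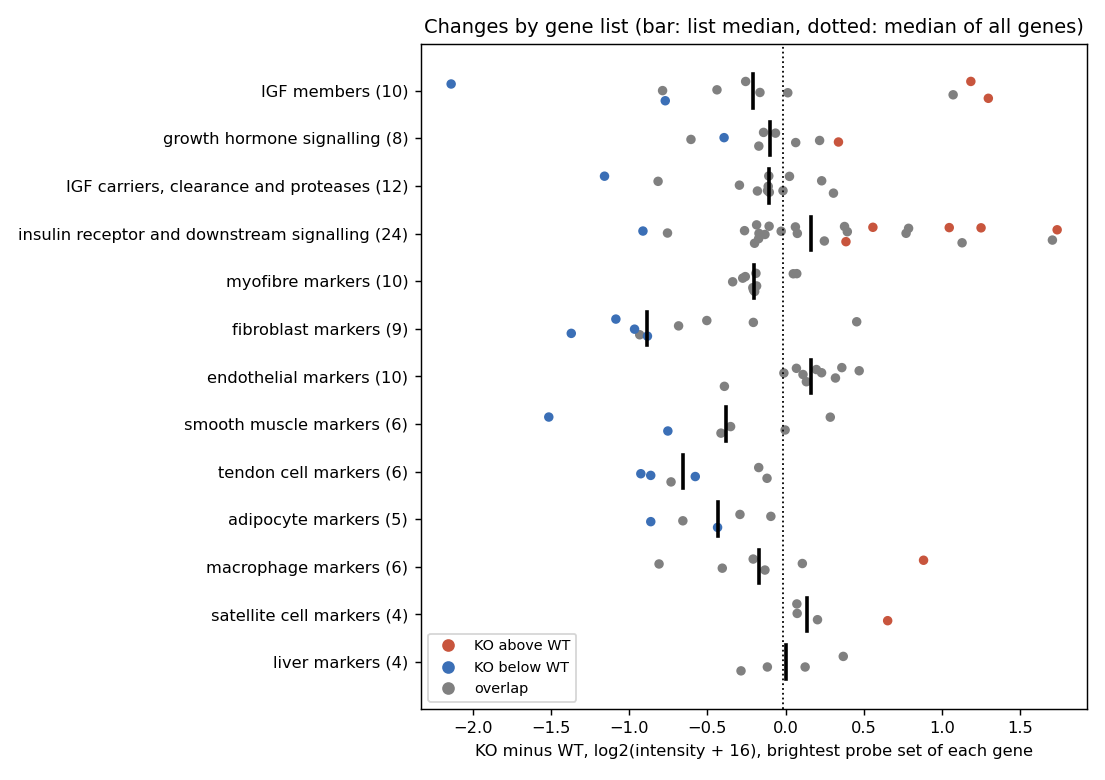
Difference between KO and WT on the log2(intensity + 16) scale, 1 point per gene at its brightest probe set, for the IGF members, 3 pathway lists and 9 cell type marker lists, with the number of measured genes in brackets. Fibroblast markers have a median of -0.88, the IGF members of -0.21 and insulin signalling genes of 0.16, against -0.02 for all genes (dotted line).

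IGF genes are also made by cells between the fibres, and markers of such cells are given here, of which 0 passed limma's test in the fibroblast, tendon, smooth muscle and endothelial lists (lowest adjusted p = 0.524). Of 9 measured fibroblast markers 8 had lower means in KO, 4 of them without overlap, and their summed intensity ran from 7850 to 13685 in WT and from 3783 to 8023 in KO, lowest in KO replicate 3. None of the fibroblast markers averaged below 16 over the arrays, although Pi16 read 5.6 in KO replicate 3. Col1a1, a collagen chain, had the largest fall of the 9 and read 3557.2, 1830.3 and 3115.3 against 1561.8, 1444.4 and 503.2, a log2 change of -1.37. Pdgfra was the marker with a higher mean in KO (log2 change 0.45), and the change of Dcn was -0.21. Tendon cell markers were lower in KO for 6 of 6, with summed intensities of 372.3 to 794.8 in WT and 275.4 to 356 in KO, and Scx and Mkx averaged below 16. Smooth muscle markers were lower for 5 of 6, summed 789.1 to 1161.5 in WT and 279.5 to 556.3 in KO, with Cnn1 and Myocd averaging below 16. Acta2, the brightest of the 6, made up most of the WT sums, at 642 ± 140 and 234 ± 119 (SD, n = 3 each). Only Acta2 and Smtn had groups without overlap. Tagln had a higher mean in KO, and Myh11, counted as lower, had a log2 change of -0.003. Endothelial markers had higher mean log2 values for 8 of 10, summed 665.5 to 844.6 in WT and 717.9 to 1099.6 in KO. These marker values stand beside those of Igf1, Igfbp5 and Igfbp3, and their part in them was not tested. In whole muscle, fewer cells of a type and less RNA per cell cannot be told apart.

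The genes whose profiles over the 6 arrays were most like those of Igf1, Igf1r and Igfbp5 were found by the root mean square distance between mean-centred log2 values, among 1768 genes with a mean intensity of at least 64 and a log2 range of at least 1. Nearest to Igf1 were Emp1, a membrane protein gene, at 0.136, Islr, which encodes a secreted protein of stromal cells, at 0.137, and Col5a1, a fibrillar collagen chain, at 0.14. Emp1 read 149.8, 77.6 and 93 in WT and 57.1, 91.5 and 32.2 in KO, so that KO replicate 2 lay inside the WT range as for Igf1. Nearest to Igf1r were Pim1, a serine/threonine kinase gene, at 0.0927, Mindy1, a deubiquitinase gene, at 0.102, and Idh2, the mitochondrial NADP-dependent isocitrate dehydrogenase, at 0.129. Idh2 read 534.4, 507.8 and 400.4 in WT and 609.6, 1686.7 and 1912.6 in KO. Nearest to Igfbp5 were Tfrc, the transferrin receptor, at 0.178, Mylk4, a kinase gene of muscle, at 0.258, and Ky, a gene required for muscle maintenance, at 0.274. Tfrc read 812.9, 686.8 and 611.4 in WT and 473.7, 156.1 and 47.2 in KO, so that the WT and KO arrays stood in the same order as for Igfbp5. These distances describe the 6 arrays and carry no test.

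**Figure D5:**
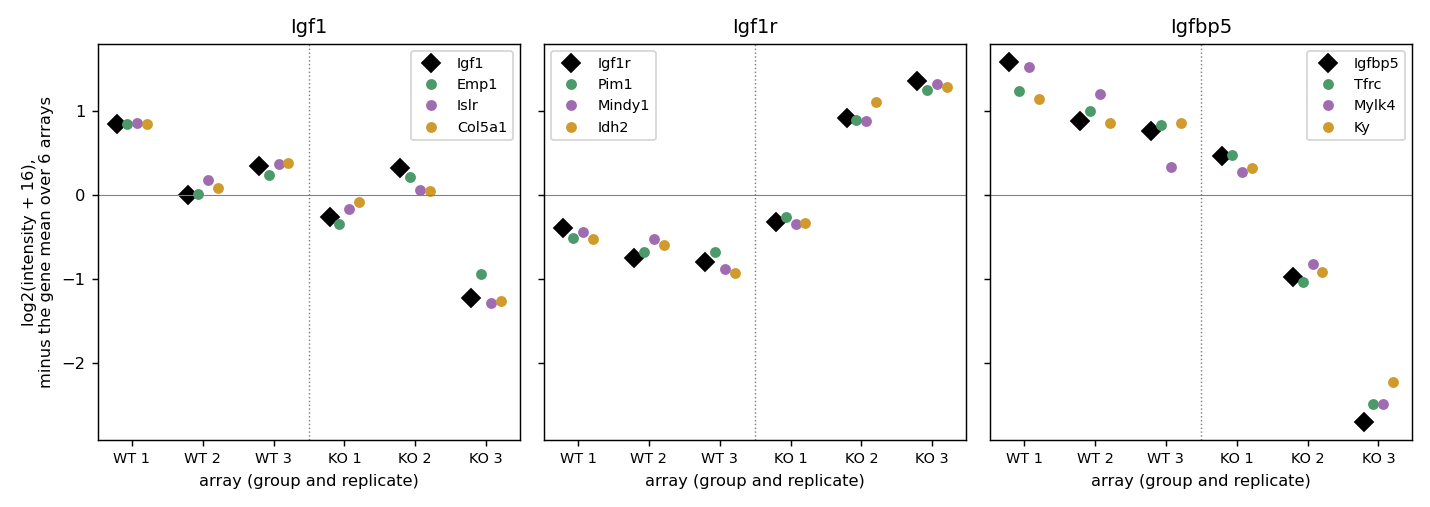
Log2(intensity + 16) minus the mean of the gene over the 6 arrays, for Igf1, Igf1r and Igfbp5 (black diamonds) and the 3 genes nearest to each (circles), by array. Tfrc, Mylk4 and Ky follow Igfbp5 within a root mean square distance of 0.178 to 0.274, and Pim1, Mindy1 and Idh2 follow Igf1r within 0.0927 to 0.129.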

How the data were processed

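TriPure was used to extract total RNA, which was biotin-labelled, per the labels' protocols. The table the authors deposited holds 1 linear intensity per probe set and array. How it was scaled and background-corrected, and with which software, is not given in the sources used here. Array medians were unequal. Of 45101 probe sets 64 manufacturer controls were left out. Symbols came from the platform annotation, updated through RefSeq (34945 probe sets with 1 symbol, 932 with several, 9160 unnamed, 34741 matched), and no member shared a probe set with another symbol. Values were tested as log2(intensity + 16) with limma 3.58.1 in R 4.3.3 (lmFit and eBayes, two-sided), and p-values were adjusted by Benjamini-Hochberg across the 45037 others. The script was tested on simulated data. The labels call the samples biological replicates, 1 mouse each. Named genes were the members, the 2 genes per pathway list with the largest change in each direction (mean intensity at least 64), and the 3 genes nearest in profile to Igf1, Igf1r and Igfbp5. Cell type markers are outside this rule and were named with their values known. Members, gene lists and tests were chosen with earlier results of these data known, and the promoter motifs were chosen after the values were seen. Alternatives were quantile, median and hybridization-control scaling, a filter on dim probe sets, a trended and robust variance, a replicate block, offsets of 1 and 64, a threshold of 0.01, gene means and each array left out. The number of arrays limits the precision, and 0 columns were left unused.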

Additional observations from a re-analysis of the deposited data

How the results depend on the processing

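No member passed under the alternatives over all probe sets or above the median level: 0 of 29 probe sets with each scaling, offset, filter, variance model, threshold and left-out array. In the test above the median level with arrays left out in turn, the members called ranged from 0 to 8 (2 without KO replicate 3). All calls there were 8 when WT replicate 1 or 3 was left out and 67 for WT replicate 2, against 1350, 13 and 312 when KO replicates 1, 2 and 3 were left out. Over all probe sets 4 were called, and 9 with quantile normalization, 11 with median centring, 79 above the median level, 15 with a trended and robust variance, 1 with an offset of 64, 2 at a threshold of 0.01 and 1 to 6 with an array left out. With the replicate number as a block the count was 0, of members also 0. Same-numbered arrays did not deviate together (correlations of -0.0055, 0.0207 and -0.0401). Correlations over many probe sets can miss a pairing that acts weakly or on few genes. Whether the numbers pair the mice was therefore not settled. The level filter, the variance model and the replicate block leave log2 changes as they are, so values under these could not reverse. Nor could the gene means of Igfbp2 and Igfbp6, which have 1 probe set each. Of 150 values of the members' brightest probe sets under alternatives, 142 kept direction and call, including those that could not reverse, and 8 reversed. These were Igfbp2 without KO replicate 3 (0.14), Igfbp4 with hybridization-control scaling (0.13) and without WT replicate 1 (0.083), and Igfbp6 with quantile normalization (-0.036) and without WT replicate 2 (-0.04), WT replicate 3 (-0.10), KO replicate 2 (-0.04) or KO replicate 3 (-0.02). Among pathway genes Cish reversed with hybridization-control scaling (0.10) and without WT replicate 2 (0.10) or KO replicate 1 (0.08), and Grb10 with that scaling (0.094) and without KO replicate 3 (0.20). With each array left out the changes ranged from -0.46 to 0.14 for Igfbp2, from -0.34 to 0.083 for Igfbp4, from -0.10 to 0.18 for Igfbp6, from -0.44 to 0.10 for Cish and from -0.44 to 0.20 for Grb10. All are log2 changes, and the cause was not tested. Hybridization-control scaling moved the median of all probe sets from -0.0078 to 0.096, and the non-overlapping members from 5 to 4 below and left 2 above, while all probe sets went from 7.29% to 3.02% below and from 5.02% to 11.4% above. With each array centred on its median 6 members lay below and 4 above, against 7.25% and 7.17% of all probe sets.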

Other observations

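Marker lists of further cell types gave these values, with 0 genes past limma's threshold in each of them. Satellite cell markers had higher means in KO for 4 of 4, with summed intensities of 65.6 to 94.4 in WT and 98.8 to 101.6 in KO. Pax7, Cdh15 and Vcam1 differed little, with log2 changes of 0.07, 0.07 and 0.20 and overlapping groups. Only Myf5 had groups without overlap. Myf5, a myogenic factor named after its values were seen, read 5.2, 5.1 and 6.6 in WT and 21.2, 17.1 and 15.9 in KO, and both it and Pax7 averaged below 16. Adipocyte markers had lower mean log2 values for 5 of 5 measured, summed 2992 to 5852 in WT and 2304 to 4075 in KO, with Lep averaging below 16. Cidec, counted as lower, had a log2 change of -0.09, but its mean intensity was 73.7 in WT and 75.4 in KO. Macrophage markers were lower for 4 of 6, summed 266.2 to 378.9 and 205.3 to 381.3, with Cd68 averaging below 16. Cd163, a scavenger receptor of resident macrophages, was chosen after its values were seen and read 13.7, 10.3 and 11.6 in WT and 30.2, 55.6 and 24.8 in KO. Every WT array thus read below the offset of 16. Mrc1, a brighter marker of the same list, went the other way, with 103.5, 52.6 and 84.5 in WT and 45.6, 53.3 and 19.9 in KO. Its log2 change was -0.81, and its groups overlapped. Liver markers summed to 131.5, 508 and 80.5 in the WT arrays and 201.3, 201.9 and 215.9 in the KO arrays, with Alb, the albumin gene and also looked at after its values were seen, at 303.1 in WT replicate 2.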
